A study of Homo sapiens with 8 samples.

Results

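The NDUF genes encode nuclear subunits and assembly factors of respiratory complex I, the NADH:ubiquinone oxidoreductase of the inner mitochondrial membrane. The set was every protein-coding gene of GENCODE whose symbol starts with NDUF, which gave 48 of 20033 nuclear protein-coding genes. By symbol, 11 were NDUFS or NDUFV genes (called core here), 29 were NDUFA, NDUFB or NDUFC genes (accessory) and 8 were NDUFAF genes (assembly factors). A gene was counted as bound where a peak overlapped a promoter window that began 1000 bp before and ended 500 bp after the TSS (transcription start site) of any transcript of the gene.

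The study mapped by ChIP-Seq where PHF20 and PHF20L1, 2 homologous methyl-lysine reader proteins of the NSL acetyltransferase complex, sit on chromatin in U2OS cells, a human osteosarcoma line. All cells over-expressed an HA-tagged protein from an introduced construct and were sorted for GFP. The PHF20 samples (N-3xHA PHF20 over-expressed) were 2 HA ChIP libraries and 1 input library, and the PHF20L1 samples were 3 HA ChIP libraries (1 N-3xHA, 2 C-3xHA) and 2 input libraries (1 N-3xHA, 1 C-3xHA). The deposited data were 1 final list of peak positions per protein, with 4147 peaks for PHF20 and 723 for PHF20L1, and neither a height, a score nor a depth. Each list held peaks of the best replicate that overlapped those of the others, so the spread of replicates could not be computed. The 95% Wilson intervals below cover counting error only. A gene without a peak is one at which none was listed, not one shown to lack the protein.

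Complex I passes electrons from NADH through a flavin and a chain of iron-sulfur clusters in its peripheral arm to ubiquinone, and pumps protons through its membrane arm. The catalytic subunits are conserved from bacteria, and part of them, the ND subunits, are encoded in mitochondrial DNA, whereas the accessory subunits surround this core. Assembly factors modify subunits and join the modules of the complex but are not part of the finished enzyme.

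PHF20 had a peak at the promoters of 24 of the 48 NDUF genes (50%, 95% interval 36.4 to 63.6), beside 20.7% of all protein-coding genes. PHF20L1 had a peak at 4 of the 48 (8.33%, 3.29 to 19.6), beside 3.82% of all protein-coding genes. These 4 genes, NDUFA13, NDUFB3, NDUFB6 and NDUFS3, also had a PHF20 peak, beside 3.73% of all protein-coding genes with peaks of both proteins. The other 20 bound genes (41.7% of the 48) had a PHF20 peak alone, beside 17% of all protein-coding genes. No NDUF gene had a PHF20L1 peak alone, which allows a share of up to 6.25%. Over all protein-coding genes that share was 0.0948%, so the count of 0 does not set the NDUF genes apart. The Wilson interval of the PHF20 share lay above the share of all genes, whereas the interval of the PHF20L1 share contained it. The latter interval is wide because it rests on 4 genes, so these intervals do not show that the proteins differ.

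The promoters that carried peaks of both proteins are shown first, from 180 bases before to 10 bases after the RefSeq gene start (GRCh38.p14), written 5′ to 3′ on the strand of the gene. NDUFS3 is a catalytic subunit of the ubiquinone-binding module, NDUFA13 (also known as GRIM-19) is an accessory subunit also described as a partner of STAT3, and NDUFB3 and NDUFB6 are accessory subunits of the membrane arm. Capitals mark ACTTCCGG, an ETS-type sequence, on either strand (NDUFA13) and CTCGCGAG (NDUFB6). NDUFB3 and NDUFS3 held neither.
NDUFA13 (chr19:19516045-19516234, plus strand): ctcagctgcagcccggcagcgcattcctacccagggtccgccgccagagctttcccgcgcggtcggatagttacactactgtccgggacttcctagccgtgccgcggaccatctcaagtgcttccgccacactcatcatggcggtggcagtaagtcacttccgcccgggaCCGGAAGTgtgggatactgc
NDUFB3 (chr2:201071821-201072010, plus strand): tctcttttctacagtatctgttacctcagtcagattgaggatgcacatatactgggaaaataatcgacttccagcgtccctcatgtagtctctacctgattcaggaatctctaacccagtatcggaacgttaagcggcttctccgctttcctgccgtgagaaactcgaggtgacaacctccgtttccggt
NDUFB6 (chr9:32573150-32573339, minus strand): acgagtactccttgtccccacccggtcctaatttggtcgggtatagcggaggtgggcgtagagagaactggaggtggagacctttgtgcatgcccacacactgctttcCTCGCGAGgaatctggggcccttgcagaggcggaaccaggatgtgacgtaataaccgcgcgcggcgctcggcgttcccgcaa
NDUFS3 (chr11:47578894-47579083, plus strand): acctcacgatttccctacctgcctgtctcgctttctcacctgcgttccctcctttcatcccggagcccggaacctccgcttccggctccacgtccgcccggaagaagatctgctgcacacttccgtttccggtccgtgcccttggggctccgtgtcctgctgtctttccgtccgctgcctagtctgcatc

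At each of these 4 genes, the PHF20L1 peak was narrower than the PHF20 peak it overlapped, and its centre lay upstream of the PHF20 centre. At NDUFS3, the PHF20 peak (chr11:47578710-47579635) was 926 bp wide and the PHF20L1 peak (chr11:47578839-47579138) was 300 bp wide and lay wholly within it. NDUFB3 carried a PHF20 peak of 934 bp (chr2:201071597-201072530) that contained the whole PHF20L1 peak of 372 bp (chr2:201071737-201072108). NDUFB6 had a PHF20 peak of 1053 bp (chr9:32572607-32573659), the widest of the 4 at the canonical TSS, and the narrowest PHF20L1 peak, at 244 bp (chr9:32573127-32573370). At NDUFA13, the PHF20 peak of 817 bp (chr19:19515831-19516647) and the PHF20L1 peak of 316 bp (chr19:19515774-19516089) shared 259 bp, or 82% of the PHF20L1 peak. This was the one PHF20L1 peak of the 4 that reached beyond the PHF20 peak and did not hold the TSS of the canonical transcript.

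The centres of the PHF20L1 peaks were 308 bp (NDUFA13), 141 bp (NDUFB3), 115 bp (NDUFB6) and 184 bp (NDUFS3) upstream of the centres of the PHF20 peaks. Relative to the canonical TSS, the PHF20L1 centres lay at -294, -79, -89 and -86 bp in the same order, and the PHF20 centres at +14, +62, +26 and +98 bp. All 4 genes had the PHF20L1 centre upstream and the PHF20 centre downstream of the TSS. Over all 747 protein-coding genes with peaks of both proteins, the PHF20L1 centre lay upstream of the PHF20 centre in 50.2%, with a median difference of -1 bp. The PHF20L1 widths were near those of the whole list, with 1 of 4 above the median of 323 bp for PHF20L1 peaks at protein-coding promoters. The PHF20 peaks nearest the canonical TSS of these 4 genes were 817 to 1053 bp wide with a median of 930 bp, within the range of 283 to 1452 bp (median 751 bp) of the 20 NDUF genes with PHF20 alone.

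**Figure D1:**
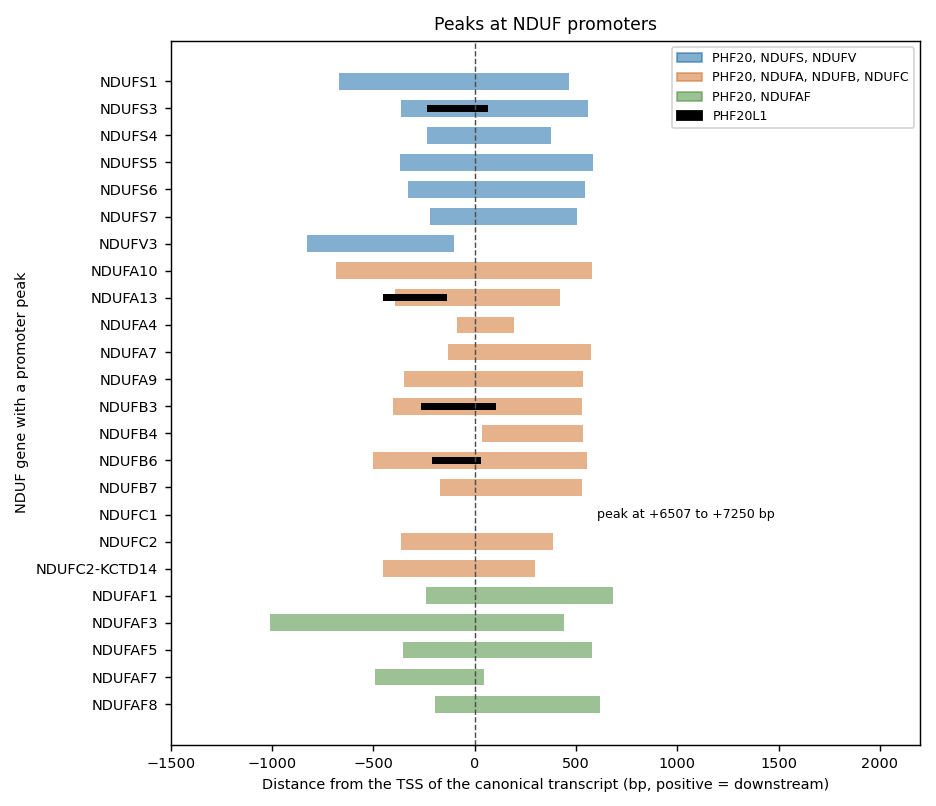
Extent of the PHF20 peaks (coloured by gene class) and the PHF20L1 peaks (black) along each bound NDUF gene, in bp from the TSS of the canonical transcript with positive values downstream; the dashed line is the TSS, and distal peaks of NDUFS3 and NDUFV3 lie outside the axis. Of the 24 genes, 21 have a PHF20 peak across the TSS, NDUFB4 and NDUFV3 have it to one side, and the peak of NDUFC1 lies at +6507 to +7250 bp.

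Among the core genes by symbol, 7 of 11 were bound by PHF20 (63.6%, 35.4 to 84.8) and 1, NDUFS3, by PHF20L1 (9.09%). Of the 7 nuclear-encoded catalytic subunits, 3 were bound (42.9%, 15.8 to 75). These were NDUFS1, the largest iron-sulfur subunit, and NDUFS3 and NDUFS7, which belong to the ubiquinone-binding module, NDUFS7 with the last iron-sulfur cluster of the chain. Those without a peak included NDUFV1, which holds the flavin and the NADH site, its neighbour NDUFV2, and NDUFS8, another iron-sulfur protein. The other 4 NDUFS and NDUFV genes, which are accessory by structure, all had a PHF20 peak (100%, 51 to 100): NDUFS4, NDUFS5, NDUFS6 and NDUFV3. NDUFS4 is a frequent site of mutations in Leigh syndrome, and NDUFS6 is a zinc-binding subunit. The intervals of the catalytic and the structurally accessory genes overlapped.

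The accessory class had 12 of 29 genes bound by PHF20 (41.4%, 25.5 to 59.3) and 3 by PHF20L1 (10.3%, 3.58 to 26.4). By family, PHF20 peaks were present at 5 of 15 NDUFA genes (33.3%, 15.2 to 58.3), 4 of 11 NDUFB genes (36.4%, 15.2 to 64.6) and 3 of 3 NDUFC genes (43.9 to 100). The NDUFA and NDUFB intervals each contained the 20.7% of all protein-coding genes. The bound NDUFA genes were NDUFA4, now known as a subunit of cytochrome c oxidase, NDUFA7, NDUFA9, a nucleotide-binding subunit of the peripheral arm, NDUFA10 and NDUFA13. The bound NDUFB genes were NDUFB3, NDUFB4, NDUFB6 and NDUFB7. NDUFC2 and NDUFC2-KCTD14, a readthrough gene, were counted through the same peak. Without NDUFA4, its paralogue NDUFA4L2 and NDUFC2-KCTD14, 22 of 45 NDUF genes were bound by PHF20 and 4 by PHF20L1.

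No peak of either list was found at the promoters of NDUFA1, NDUFA2, NDUFA3, NDUFA4L2, NDUFA5, NDUFA6, NDUFA8, NDUFA11, NDUFA12 and NDUFAB1, the mitochondrial acyl carrier protein. The same held for NDUFB1, NDUFB2, NDUFB5, NDUFB8, NDUFB9, NDUFB10 and NDUFB11.

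Of the assembly factors, 5 of 8 were bound by PHF20 (62.5%, 30.6 to 86.3) and none by PHF20L1, which allows a share of up to 37.5%. NDUFAF1, a member of the intermediate assembly complex of the membrane arm, had a peak. NDUFAF5, which hydroxylates NDUFS7, and NDUFAF8, its partner protein, both had one, as did NDUFAF7, an arginine methyltransferase. NDUFAF3 had a PHF20 peak and NDUFAF4, the protein it works with, had none. NDUFAF2 and its paralogue NDUFA12 both lacked a peak, and so did NDUFAF6.

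Grouped by position in the enzyme, 8 of 16 peripheral arm genes (50%, 28 to 72) and 9 of 20 membrane arm genes (45%, 25.8 to 65.8) had a PHF20 peak. PHF20L1 peaks were at 1 of 16 peripheral arm genes (6.25%) and 3 of 20 membrane arm genes (15%, 5.24 to 36). The remaining 12 NDUF genes, the assembly factors among them, were in neither list. The intervals of all 3 classes and both arms overlapped, so no class stood apart from another in these counts. The 7 ND genes of mitochondrial DNA could not be compared, because neither list held a peak on that chromosome.

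**Figure D2:**
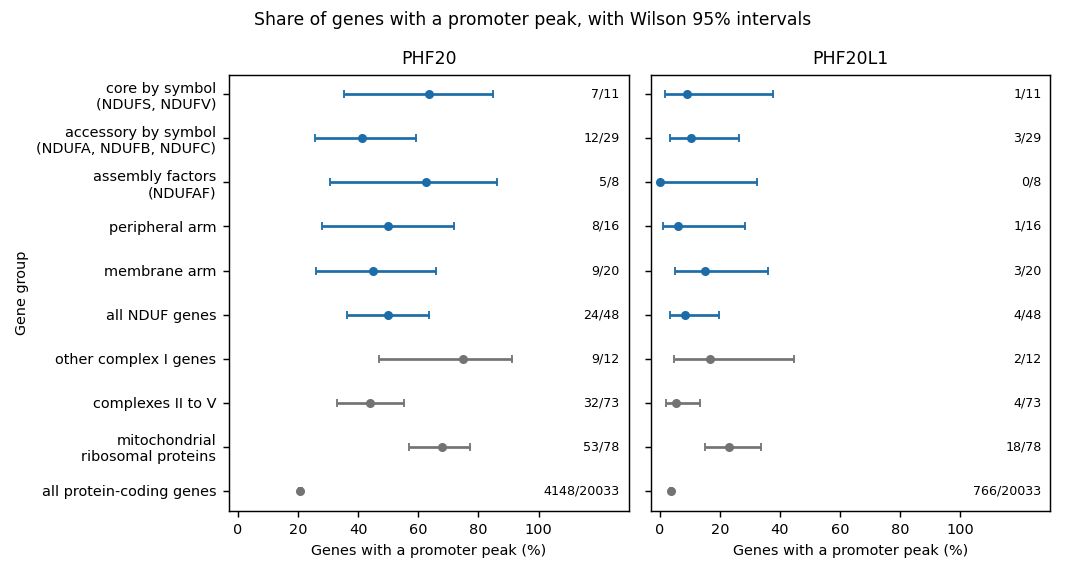
Percentage of genes with a promoter peak of PHF20 (left) and PHF20L1 (right) for the NDUF classes (blue) and for other groups (grey), as points with Wilson 95% intervals and with bound genes over all genes of the group at the right edge of each panel. The PHF20 intervals of the NDUF classes overlap each other and lie above the 20.7% of all protein-coding genes. The PHF20L1 intervals contain 3.82% for all NDUF genes and each class by symbol but not for the membrane arm (15%, 5.24 to 36). The membrane arm share rests on 3 genes, of which NDUFA13 and NDUFB3 share their PHF20L1 peaks with other protein-coding genes.

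The widest PHF20 peak at an NDUF promoter was at NDUFAF3 (chr3:49021111-49022562, 1452 bp, percentile 98.2 of all PHF20 peaks). It was followed by a peak at a distal alternative TSS of NDUFS3 (chr11:47565038-47566401, 1364 bp, percentile 97.1). Next were NDUFA10 (chr2:240024761-240026028, 1268 bp) and NDUFS1 (chr2:206158978-206160115, 1138 bp), at percentiles 94.9 and 90.4. NDUFB6 came next, followed by NDUFS5 (chr1:39025981-39026934, 954 bp), NDUFAF5 (chr20:13784673-13785607, 935 bp), NDUFB3, the peak at the canonical TSS of NDUFS3, NDUFAF1 (chr15:41401813-41402736, 924 bp) and NDUFA9 (chr12:4648766-4649650, 885 bp). The narrowest peak was at NDUFA4 (chr7:10939957-10940239, 283 bp, percentile 13.1). NDUFB4 (chr3:120596373-120596870, 498 bp) and NDUFAF7 (chr2:37231165-37231706, 542 bp) were the next narrowest.

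The 25 separate PHF20 peaks at NDUF promoters had a median width of 817 bp, beside 635 bp (interquartile range 416 to 920) for the 3562 peaks at all protein-coding promoters. Of the 25, 21 were wider than 635 bp. Median widths of the peak nearest the TSS were 873 bp for the 7 bound core genes (615 to 1138 bp), 751 bp for the 12 accessory genes (283 to 1268 bp) and 924 bp for the 5 assembly factors (542 to 1452 bp). The ranges of the classes overlapped. Width is the only property of a peak in these lists besides its place, and it is not a measure of the amount of protein bound.

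**Figure D3:**
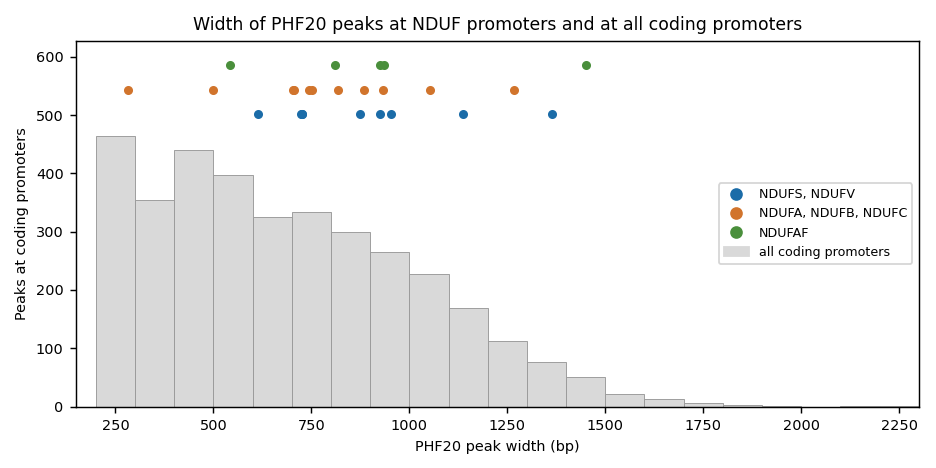
Distribution of PHF20 peak widths in bp at all protein-coding promoters (histogram) with the NDUF promoter peaks as dots in a row for each class, whose height has no meaning. The NDUF peaks run from 283 to 1452 bp, and 21 of 25 lie to the right of the median of 635 bp for all protein-coding promoters.

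The PHF20 peaks lay across the start sites. The canonical TSS was inside the peak in 21 of the 24 bound NDUF genes, and the centre was within 250 bp of it in 20. The nearest centre was at NDUFC2 (chr11:78079476-78080226), +11 bp from the TSS. The centre was downstream of the TSS in 18 of 24 genes (75%) and upstream in 6, which were NDUFA10, NDUFC2-KCTD14, NDUFAF3, NDUFAF7, NDUFS1 and NDUFV3. Over all bound protein-coding genes, 49% had the centre downstream. The median signed distance was +82.5 bp for NDUF genes and -7 bp for all bound genes, and the median absolute distance was 108 and 188 bp.

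At 3 bound genes the peak did not hold the canonical TSS. At NDUFB4 the peak was centred at +285 bp and started just downstream of the TSS, and at NDUFV3 (chr21:42892483-42893205) it was centred at -465 bp. The farthest was NDUFC1 (chr4:139295227-139295970, 744 bp), with its centre at +6879 bp in an intron. It was counted as bound through an alternative TSS 217 bp from the peak centre, which belongs to a transcript not annotated as protein-coding, and was not bound when canonical, outermost or protein-coding transcript TSSs were used. NDUFS3 and NDUFV3 each had a further PHF20 peak at a distal alternative TSS, of 1364 bp (chr11:47565038-47566401) and 727 bp (chr21:42879189-42879915). The former also overlapped the promoters of CELF1 and PTPMT1 and the latter that of WDR4, whereas both genes were bound at the canonical TSS without them.

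The 24 NDUF genes without a promoter peak were all some distance from the nearest PHF20 peak. None had a peak within 5000 bp of any TSS or within the gene body. The nearest were NDUFB10, 5062 bp from a peak (chr16:1964620-1965424) at the promoter of the ribosomal protein gene RPS2, and NDUFB8, 5813 bp from a peak (chr10:100535813-100536211) at HIF1AN. NDUFB11 and NDUFA2 were 14699 and 16907 bp from the nearest peak. For 16 of the 24 the gap was over 100000 bp, up to 3834945 bp at NDUFA5. The median gap of 139160 bp was close to that of all protein-coding genes without a PHF20 promoter peak, 144232 bp. The number of annotated TSSs, which sets how many windows a gene has, was a median of 6 (2 to 17) in bound and 7.5 (1 to 34) in unbound NDUF genes.

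**Figure D4:**
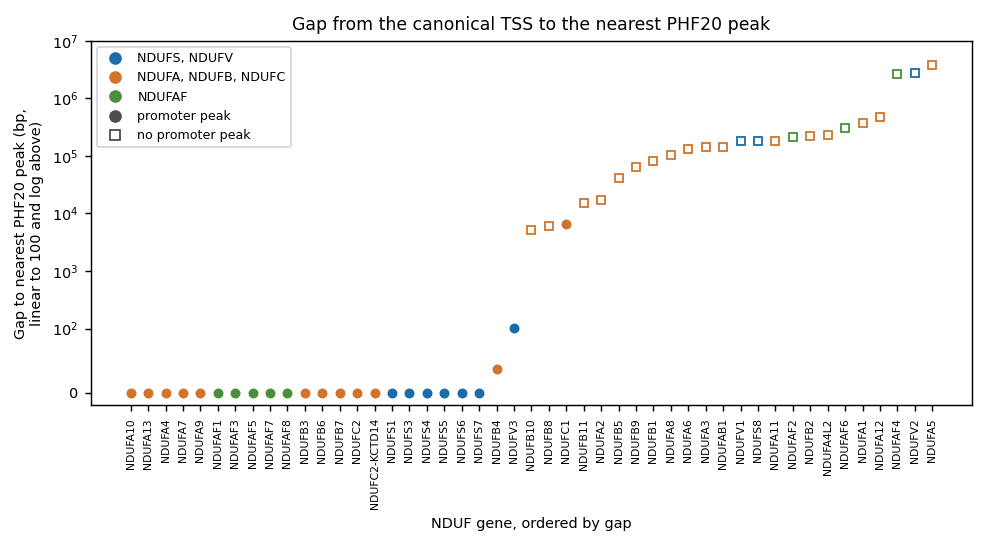
Gap in bp from the canonical TSS of the NDUF genes named here to the nearest PHF20 peak, on an axis that is linear to 100 bp and logarithmic above; filled circles are genes with a promoter peak, open squares genes without, and colours are classes. A gap of 0 marks the 21 genes with the TSS inside a peak, the open squares run from 5082 bp at NDUFB10 to 3835031 bp at NDUFA5, and NDUFC1 lies among them at 6507 bp because its call rests on an alternative TSS.

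Many NDUF genes share a promoter with a gene on the other strand, in which case a peak cannot be assigned to one of the pair. A protein-coding gene started within 1000 bp in the divergent direction at 17 of 48 NDUF genes (35.4%). This arrangement was present at 9 of 24 bound (37.5%) and 8 of 24 unbound (33.3%) NDUF genes, whereas over all protein-coding genes it was present at 21.3% of bound and 6.37% of unbound genes. The bound pairs were NDUFA7 with RPS28 (TSSs 121 bp apart), NDUFA9 with AKAP3 (63 bp), NDUFA13 with TSSK6 (677 bp), NDUFB3 with HYCC2 (330 bp), NDUFS1 with EEF1B2 (451 bp) and NDUFS3 with KBTBD4 (104 bp). The assembly factor pairs were NDUFAF5 with ESF1 (109 bp), NDUFAF7 with CEBPZ (62 bp) and NDUFAF8 with TEPSIN (263 bp).

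In each of these 9 pairs the same PHF20 peak fell in both promoter windows. This follows from the definitions, since each peak held the NDUF TSS and the partner's window reaches over that TSS. In 7 pairs the peak held both TSSs. The centre was nearer the NDUF TSS in 8 pairs and nearer the partner in 1, NDUFAF7 and CEBPZ. Peaks at 14 of the 24 bound NDUF genes overlapped the window of some other protein-coding gene, which included MRPL36 for NDUFS6 (chr5:1801079-1801951) and DALRD3 for NDUFAF3. Among the 14, NDUFC2 and NDUFC2-KCTD14 shared only with each other, and NDUFV3 shared only its distal peak. The same share over all bound protein-coding genes was not computed. With only peaks that overlapped no other gene's window, 11 of 48 NDUF genes were bound by PHF20, beside 13% of all protein-coding genes. With all peaks these were 24 genes and 20.7%. By PHF20L1, 1 gene, NDUFB6, was bound, beside 2.25%, and with all peaks 4 genes, beside 3.82%. No intervals were computed for the counts without shared peaks.

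The pairs without a peak were spaced by 38 to 519 bp, beside 62 to 677 bp in the bound pairs. They were NDUFA1 with RNF113A (99 bp), NDUFA2 with IK (199 bp), NDUFA8 with MORN5 (129 bp), NDUFB1 with CPSF2 (263 bp), NDUFB5 with MRPL47 (156 bp), NDUFB9 with TATDN1 (38 bp), NDUFB11 with RBM10 (519 bp) and NDUFAF2 with ERCC8 (135 bp).

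The RefSeq promoter table, with 250 bases before to 50 after each gene start, held 40 of the 48 NDUF genes, 21 of 24 bound and 19 of 24 unbound. NDUFA4, NDUFA4L2, NDUFB5, NDUFB9, NDUFC2, NDUFS5 and NDUFAF6 were among those not matched. Bound and unbound NDUF promoters were alike in base composition. GC content had a median of 61% in bound and 62.7% in unbound NDUF promoters. The ratio of observed to expected CpG had a median of 0.84 in both, with ranges of 0.57 to 1.1 and 0.59 to 1.06. For all protein-coding genes these medians were 65% and 0.88 with a PHF20 peak and 63% and 0.74 without.

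Short sequences were then searched on both strands of these promoters, as exact letters that describe the promoters and do not show that a factor sits there. AAGATGGCG, the core of the sequence read by YY1, was present in 5 of 21 bound (23.8%, 10.6 to 45.1) and 2 of 19 unbound NDUF promoters (10.5%, 2.94 to 31.4). Over all 15366 protein-coding promoters it was present in 2.97%, with 6.49% of bound and 2% of unbound ones. GCGCATGCG, a sequence of the type read by NRF1, which regulates nuclear genes of respiration, was in 4 bound (19%, 7.67 to 40) and 2 unbound NDUF promoters (10.5%), beside 2.79% of all promoters. Taken over all 40 NDUF promoters, the YY1-type sequence was in 7 (17.5%, 8.75 to 31.9) and the NRF1-type sequence in 6 (15%, 7.06 to 29.1). Both intervals lay above the shares of all promoters, and the intervals of bound and unbound NDUF genes overlapped.

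The YY1-type sequence lay just downstream of the gene start in all 7 promoters, with its first base between +10 (NDUFAF8) and +26 (NDUFA6). The 30 bases around it are shown for 5 bound genes and then for 2 unbound genes, NDUFA6 and NDUFB8, so that the flanks can be compared, with the match in capitals and coordinates on GRCh38.p14.
NDUFA7 (chr19:8321342-8321371, minus strand): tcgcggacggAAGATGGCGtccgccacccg
NDUFA9 (chr12:4649114-4649143, plus strand): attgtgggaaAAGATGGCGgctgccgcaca
NDUFAF8 (chr17:81239317-81239346, plus strand): ggacggacctAAGATGGCGgcctccagggg
NDUFS4 (chr5:53560650-53560679, plus strand): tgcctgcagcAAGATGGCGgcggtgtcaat
NDUFS7 (chr19:1383914-1383943, plus strand): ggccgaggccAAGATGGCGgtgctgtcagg
NDUFA6 (chr22:42090728-42090757, minus strand): atgctttggcAAGATGGCGgggagcggcgt
NDUFB8 (chr10:100529835-100529864, minus strand): gaagaaggtgAAGATGGCGgtggccagggc

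All 7 matches were in the sense direction of the gene. NDUFS7, bound by PHF20 (chr19:1383687-1384413, 727 bp), held both the YY1-type and the NRF1-type sequence. The latter was at -74 in NDUFS7, -46 in NDUFS6, -159 in NDUFB4 and -4 in NDUFAF5, and in the unbound genes at -4 in NDUFA8 and -158 in NDUFA5. NDUFA8 and NDUFAF5 thus held it at the same place, one without and one with a peak, and are shown beside NDUFS7 with NRF1-type matches in capitals, and an E-box (CACGTG) in NDUFAF5 also in capitals.
NDUFS7 (chr19:1383727-1383916, plus strand): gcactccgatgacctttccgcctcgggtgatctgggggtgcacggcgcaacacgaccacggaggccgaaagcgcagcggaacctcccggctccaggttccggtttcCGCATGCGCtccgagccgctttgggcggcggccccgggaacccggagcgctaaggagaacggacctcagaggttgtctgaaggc
NDUFAF5 (chr20:13784848-13785037, plus strand): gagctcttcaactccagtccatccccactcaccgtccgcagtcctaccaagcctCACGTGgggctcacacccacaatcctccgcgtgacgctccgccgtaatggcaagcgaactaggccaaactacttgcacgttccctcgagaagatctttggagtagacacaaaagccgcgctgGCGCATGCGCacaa
NDUFA8 (chr9:122159770-122159959, minus strand): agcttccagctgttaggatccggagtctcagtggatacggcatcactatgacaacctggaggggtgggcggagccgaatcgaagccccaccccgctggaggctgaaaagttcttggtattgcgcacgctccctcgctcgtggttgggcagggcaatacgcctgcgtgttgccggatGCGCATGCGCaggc

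ACTTCCGG, the ETS-type sequence, was in 16.5% of protein-coding promoters with a PHF20 peak and 3.62% of those without. It was in 2 of 21 bound NDUF promoters (9.52%, 2.65 to 28.9), an interval that contained 16.5%, and 0 of 19 unbound ones. The matches were in NDUFA13, at -10, and NDUFS1, at -158 and shown here as the bound promoter with the match farthest from its start.
NDUFS1 (chr2:206159435-206159624, minus strand): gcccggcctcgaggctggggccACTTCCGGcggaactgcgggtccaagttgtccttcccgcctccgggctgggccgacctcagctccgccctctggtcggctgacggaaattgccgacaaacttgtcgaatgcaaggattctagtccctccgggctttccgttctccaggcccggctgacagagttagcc

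CACGTG was in 3 bound NDUF promoters (14.3%) and 1 unbound one (5.26%), beside 11.7% of bound, 8.09% of unbound and 8.87% of all protein-coding promoters. CACGTGAC was in 1 bound (4.76%) and 0 unbound NDUF promoters, beside 6.46%, 2.78% and 3.58% in the same order. CTCGCGAG was in NDUFB6 alone (4.76% of bound), beside 2.84% of bound and 1.66% of all protein-coding promoters. ACTACAATT was in none of the 40, beside 0.501% of all promoters. The GC box GGGCGG was in 15 bound (71.4%) and 11 unbound (57.9%) NDUF promoters, beside 69.9% of bound, 59.5% of unbound and 61.8% of all protein-coding promoters. CCAAT was in 3 of 21 bound (14.3%, 4.98 to 34.6) and 8 of 19 unbound NDUF promoters (42.1%, 23.1 to 63.7), and in 34.4% and 37.2% of all bound and unbound protein-coding promoters. The bound genes with CCAAT were NDUFAF5, NDUFAF8 and NDUFV3, of which NDUFAF8 held 6 copies, and the intervals of the bound and unbound genes overlapped. TATAAA was in 2 bound (9.52%) and 1 unbound (5.26%), beside 3.83% of bound, 11% of unbound and 9.42% of all protein-coding promoters.

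**Figure D5:**
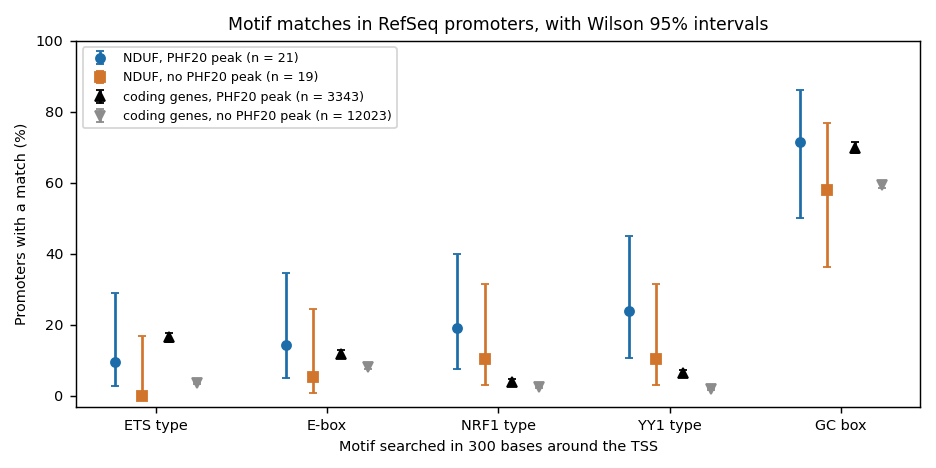
Percentage of promoters of 300 bases that hold the ETS-type, E-box (CACGTG), NRF1-type, YY1-type or GC box sequence on either strand, for bound NDUF genes (21), unbound NDUF genes (19) and protein-coding genes with and without a PHF20 peak, with Wilson 95% intervals. The YY1-type and NRF1-type sequences are at 23.8% and 19% of bound NDUF promoters, above protein-coding genes with a PHF20 peak (6.49% and 4.01%). The ETS-type sequence is at 9.52% beside 16.5%, which lies within the NDUF interval (2.65 to 28.9).

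Genes that act on complex I but carry other names were also examined. PHF20 peaks were at 9 of 12 of them (75%, 46.8 to 91.1) and PHF20L1 peaks at 2 (16.7%). Of the genes whose products work with NDUFAF1 in the intermediate assembly complex, ACAD9, ECSIT, TMEM126B, TIMMDC1 and COA1 had a PHF20 peak, with widths of 983, 398, 658, 1120 and 977 bp, and TMEM186 had none. FOXRED1 (1000 bp), NUBPL, which delivers iron-sulfur clusters (797 bp), and TMEM126A (1051 bp) had one, and TMEM70 had peaks of 893 and 485 bp. ECSIT and TMEM70 also had PHF20L1 peaks, of 270 and 369 bp. DMAC1 and OXA1L had none.

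Other mitochondrial gene groups gave a scale for these shares. Genes of respiratory complexes II to V had PHF20 peaks at 32 of 73 promoters (43.8%, 33 to 55.2) and PHF20L1 peaks at 4 (5.48%). Mitochondrial ribosomal protein genes had PHF20 peaks at 53 of 78 (67.9%, 57 to 77.3) and PHF20L1 peaks at 18 (23.1%, 15.1 to 33.6). The intervals of the NDUF genes overlapped those of both groups for either protein.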

How the data were processed

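The samples were HA ChIP-Seq and input libraries of U2OS cells, grouped by the protein and tag in their labels. Per the methods and submitters' processing notes, reads were mapped to hg38 with Bowtie 1.1.2, unique and deduplicated reads were kept, and peaks were called with MACS2 2.2.7.1 against input. The authors removed blacklisted regions and 1 failed PHF20 replicate. For each protein they kept the peaks of the best replicate that overlapped peaks called in the other replicates at a looser p-value threshold. The deposited values are peak positions, with no score, count or other per-sample column (0 used), so depth could not be read from them and no test over samples was possible.

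Peaks were placed on GENCODE release 44 promoters (1000 bp before to 500 bp after any TSS, minimum overlap 1 bp), with coordinates counted from 1. Shares carry Wilson 95% intervals, and a count of 0 the share that 3 counts would give. Sequences and motif counts came from the RefSeq promoter table (GRCh38.p14). The placement was tested on simulated data, in which all 200 planted genes among 2000 were found with 0 false calls. The tools were samtools 1.23.1 and, under Python 3.11.15, numpy 2.4.6, matplotlib 3.10.9, scipy 1.17.1 and pysam 0.24.0.

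Every NDUF gene was counted, and the single result for part of them is not reported here. Coordinates were given for genes with a PHF20L1 peak, the 10 genes with the widest and 3 with the narrowest PHF20 peaks, and those nearest to and farthest from the TSS, and others were added after their values were seen. The members and lists were chosen with earlier results of these data known. Alternatives were other TSS sets, windows, overlap rules, peak widths, members and sequence windows.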

Additional observations from a re-analysis of the deposited data

How the results depend on the processing

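No paired analysis was possible because the peak lists hold no values per replicate, and for the same reason no replicate could be left out. Of 66 alternative values, 56 stayed within 1.5 times the count or within the interval of the main value and 10 did not. The count of 24 NDUF genes with a PHF20 peak ranged from 21 to 24 over the other TSS sets, windows and peak widths. Under every one of these settings 18 genes were bound, and 24 were bound under none of them. These settings do not include the removal of peaks shared with other genes, which is given below. With only those peaks that reached the median width of the list, 2 NDUF genes had a PHF20L1 peak and 2 had both (2.11% and 1.94% of all protein-coding genes), since NDUFB6 and NDUFS3 were lost. With the outermost TSS alone, 3 assembly factors were bound by PHF20 (17.8% of all protein-coding genes), since NDUFAF1 and NDUFAF3 were lost. The median distance from PHF20 centre to the nearest TSS was 67 bp, and it was 187 bp to the outermost and 108 bp to the canonical TSS. With peaks in the window of no other protein-coding gene, an alternative chosen after seeing the data, 11 NDUF genes had a PHF20 peak and 1 a PHF20L1 peak (13% and 2.25% of all protein-coding genes). Within 250 bp of the 23 peak centres, CACGTGAC was at 0%, CACGTG at 4.35% and TATAAA at 0%. For the 3562 peaks at all protein-coding promoters these shares were 6.04%, 14.6% and 5.61%. CACGTG was thus below the share of all such peaks here, whereas in the promoter sequences it was at 14.3% beside 11.7% of bound protein-coding promoters. The lists give no depth, so no gene can be said to lack either protein.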
